A study of Mus musculus with 10 samples.

Results

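Lipid droplet coat and lipolysis genes were followed in the cochlea of aged mice given nicotinamide riboside (NR), a precursor of NAD+, or no NR (Vehicle). The set held 10 genes picked by symbol, with earlier results of these data known. All were present among the 54532 genes of the count tables, and all 10 were retained among the 18329 genes that passed the filter on low counts. They were the CIDE droplet fusion genes Cidec and Cidea, the perilipins Plin1, Plin2, Plin3, Plin4 and Plin5, and the lipases Pnpla2, Lipe and Mgll. The question asked of them was whether the genes tied to fat cells, Cidec and Plin1, and the genes used in most tissues, Plin2, Plin3 and Pnpla2, differed alike between the groups. RNA came from cochlear tissue with 1 library per mouse, 5 NR mice and 5 Vehicle mice. Every mouse carried mtKeima, a fluorescent reporter protein of mitophagy that sits in mitochondria, and every mouse was 12 months old. NR was given in the drinking water at 7 mg/ml (24 mM) from 2 months of age, for 10 months, and Vehicle mice drank plain water.

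A lipid droplet is a core of triglyceride and sterol ester inside a phospholipid monolayer, and perilipins are the proteins that coat it. In fat cells Plin1 holds back lipolysis in the resting state, and Cidec moves lipid from small droplets into larger ones, which gives the single large droplet of a white adipocyte. Other cells coat small droplets with Plin2 and Plin3. Lipolysis runs in 3 steps, in which Pnpla2 (adipose triglyceride lipase) cuts triglyceride, Lipe (hormone-sensitive lipase) cuts diglyceride, and Mgll (monoacylglycerol lipase) releases the last fatty acid.

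The stretch of 250 bases before the transcription start is shown for Cidec and Plin1, the pair whose levels separated the groups, and for Plin2 and Pnpla2, which stand for the widely used genes. The sequences are those of RefSeq on build GRCm38.p6, written in the direction of transcription, and capitals mark each CG dinucleotide.
Cidec, chr6:113435761-113436010, minus strand: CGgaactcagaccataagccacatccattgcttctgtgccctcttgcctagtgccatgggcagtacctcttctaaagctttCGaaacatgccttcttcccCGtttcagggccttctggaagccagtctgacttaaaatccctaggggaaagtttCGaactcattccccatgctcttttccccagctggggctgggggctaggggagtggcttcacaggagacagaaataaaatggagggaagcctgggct
Plin1, chr7:79732777-79733026, minus strand: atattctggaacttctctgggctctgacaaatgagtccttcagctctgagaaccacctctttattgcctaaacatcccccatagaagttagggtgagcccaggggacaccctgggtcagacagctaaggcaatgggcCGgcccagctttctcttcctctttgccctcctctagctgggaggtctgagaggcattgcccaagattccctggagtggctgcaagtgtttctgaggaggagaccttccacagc
Plin2, chr4:86670060-86670309, minus strand: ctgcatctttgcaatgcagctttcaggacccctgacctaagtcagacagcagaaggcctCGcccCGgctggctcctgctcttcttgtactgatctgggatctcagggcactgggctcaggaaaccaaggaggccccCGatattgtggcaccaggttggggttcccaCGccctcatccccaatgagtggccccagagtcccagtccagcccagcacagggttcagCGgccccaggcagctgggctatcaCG
Pnpla2, chr7:141454938-141455187, plus strand: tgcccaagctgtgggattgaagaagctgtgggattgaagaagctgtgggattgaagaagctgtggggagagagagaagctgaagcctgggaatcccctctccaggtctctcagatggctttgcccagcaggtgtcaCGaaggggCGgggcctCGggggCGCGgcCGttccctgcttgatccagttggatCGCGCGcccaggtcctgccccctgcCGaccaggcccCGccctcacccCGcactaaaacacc
RefSeq held such a window for 9 of the 10 genes, all but Cidea. The Plin1 window held 1 CG and this Cidec window held 4, against 6 for Plin2, 7 for Plin3 and 12 for Pnpla2, with a median of 6 over all 32817 windows of this length. Of all windows, 18.8% held as few as that of Plin1 and 44.4% as few as that of Cidec, so neither was rare. The core site of nuclear receptors such as PPARs, AGGTCA on either strand, was in 14% of all windows, in those of Plin2 (218 bases before the start) and Plin5, and not in those of Cidec or Plin1. An exact direct repeat of that site with 1 base between the copies was in 0.0335% of all windows and in none of the members'. Only exact matches within these 250 bases were sought, so looser or more distant sites would be missed. The study, citing earlier work, places working PPAR response elements in the promoters of both Cidec and Plin1. The GC box GGGCGG, held by 32.7% of all windows, had 2 matches for Pnpla2 and 3 for Plin3, with none for Cidec, Plin1 or Plin2.

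The 10 libraries held 17060379 to 24419230 gene counts, and totals did not separate the groups (exact two-sided permutation test, p = 0.357). Coch, a protein of the cochlear matrix, stood at 2116 to 4207 CPM (counts scaled to a common library size). The labels call the mice female and the study's methods male, and Ddx3y, a Y-linked gene, read 64.5 to 85.0 CPM in all 10 libraries and Xist, the RNA of the inactive X, at most 0.405 CPM. Other tissues were present to different degrees. Of 14 tested skeletal muscle markers, 10 were higher in NR at an unadjusted p of 0.05, against 4.83% of all tested genes. The list summed to 303 to 1453 CPM in NR mice and 269 to 392.5 CPM in Vehicle mice, with NR 3 and NR 5 the highest. Most of the sum in Vehicle mice was Pvalb, named after its values were seen, at 232 to 355 CPM there and 276 to 383 CPM in NR. The muscle marker Acta1 read 0.511 to 12.2 CPM in Vehicle and 1.01 to 287 CPM in NR. Cochlea markers summed to 4288 to 6489 CPM in NR and 4718 to 8704 CPM in Vehicle. At an unadjusted p of 0.05, 9 of 20 were lower in NR, against 4.88% of all tested genes, and 0 higher. In bulk RNA, fewer cells of a type and less RNA per cell cannot be told apart.

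Mean levels of Cidec and Plin1 were 8.22-fold and 8.26-fold higher in NR in the fitted model, that of Cidea was 3.37-fold higher, and the other coat genes and all 3 lipases lay between 0.828-fold and 1.55-fold of Vehicle. Of the 10 genes, 4 were higher in NR at an unadjusted p of 0.05 by edgeR's quasi-likelihood test (Cidec, Plin1, Cidea and Plin5), against 4.83% of all tested genes, and 1 was lower (Plin3), against 4.88% (either way 5 of 10, against 9.71%). After Benjamini-Hochberg adjustment over all 18329 genes edgeR called none of the 10 at 0.05, nor any other gene (0%). DESeq2, run on the same counts, called Cidec (adjusted p = 5.33e-09) and Plin1 (adjusted p = 1.49e-07) among 105 genes, and no other gene of the set. For 2 of the 10, Cidec and Plin1, every NR mouse was above every Vehicle mouse, which held for 0.769% of all genes tested, and for 0 of the 10 was every NR mouse below every Vehicle mouse (0.878% of all genes).

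**Figure D1:**
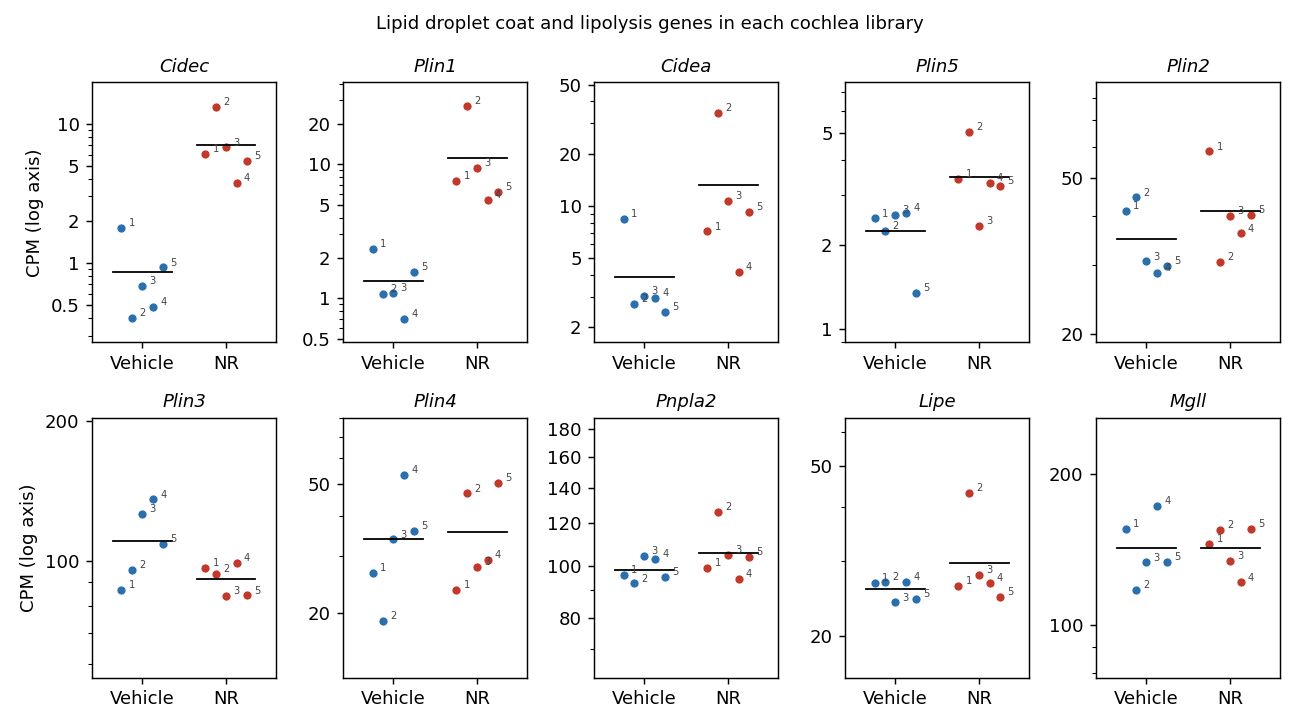
CPM of each of the 10 genes in each mouse, on log axes that differ between panels, with the mouse's replicate number beside its point and the group mean as a line. Cidec and Plin1 are separate between the groups, Cidea and Plin5 touch or overlap at 1 to 2 mice, and the other genes overlap.

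Cidec, which drives droplet fusion and growth, lies on chr6:113424634-113435760 of mm10. It read 6.02, 13.2, 6.75, 3.76 and 5.38 CPM in NR mice 1 to 5 and 1.79, 0.404, 0.688, 0.485 and 0.929 CPM in Vehicle mice 1 to 5. The groups did not overlap, NR 2 was the highest mouse, and the lowest NR mouse was above the highest Vehicle mouse, Vehicle 1. The log2 fold change was 3.04 (SE 0.45), with an edgeR adjusted p of 0.224 and an exact two-sided permutation p of 0.00794 over all ways of splitting the 10 mice, the smallest that 5 against 5 allows. Only 10 of the tested genes had a larger log2 fold change than Cidec, and 1 had a smaller p. Cidec and Plin1 were picked with earlier results of these data known, so their p-values and ranks are descriptions and no independent support.

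Plin1, the coat protein of the fat cell droplet, lies on chr7:79720218-79732903. Its values were 7.52, 27.2, 9.39, 5.46 and 6.19 CPM in NR and 2.33, 1.08, 1.09, 0.705 and 1.58 CPM in Vehicle. Here too the groups were apart, with NR 2 far above the other NR mice and Vehicle 1 at the top of its group. The log2 fold change was 3.05 (SE 0.51, edgeR adjusted p = 0.224, exact permutation p = 0.00794). Without NR 2 it was 2.41 for Plin1 and 2.69 for Cidec.

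The ratio of Plin1 to Cidec had similar means in both groups. Over the mice it ran from 0.459 (NR 5) to 1.06 (Vehicle 2, with 9 Cidec reads). Per transcript length, as TPM (a gene's reads divided by its length, as a share of all genes), Plin1 stood at 0.583 ± 0.143 of Cidec in NR and 0.696 ± 0.214 in Vehicle (SD, n = 5), and the ranges overlapped. Across the 10 mice, with each group's mean removed, log2 CPM of Cidec and Plin1 had a Pearson r of 0.905, where Plin1 was the 10th closest of 18328 genes to Cidec and Cidec the 8th closest to Plin1. All points share their library with its depth and tissue make-up. Genes of other kinds were closer still. Polr3k (r = 0.957), Fancf (r = 0.943), Phf6 (r = 0.940), Actr10 (r = 0.934) and Top1 (r = 0.916) came nearest to Cidec. Psip1 (r = 0.969), Eif2s2 (r = 0.946), Pank2 (r = 0.941), Ccnj (r = 0.940) and 1110004F10Rik (r = 0.932) came nearest to Plin1.

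Cidea, a fusion protein abundant in brown fat, read 7.13, 34.4, 10.7, 4.19 and 9.26 CPM in NR and 8.39, 2.74, 3.03, 2.95 and 2.46 CPM in Vehicle. The groups overlapped because of Vehicle 1, which was above NR 1 and NR 4, and NR 2 was again the highest mouse. Its log2 fold change was 1.75 (SE 0.57, edgeR unadjusted p = 0.0101, adjusted p = 0.434), and 1.01 without NR 2. Its values moved with those of Cidec (r = 0.863) and Plin1 (r = 0.876) within groups over the 10 mice. Ucp1, the heat-producing protein that defines brown fat, was at most 0.199 CPM in Vehicle mice and 0.173 CPM in NR 1, 3, 4 and 5, but 3.85 CPM (86 reads) in NR 2, the mouse with the most Cidea. The 11 brown adipocyte markers summed to 188 to 239 CPM in NR, highest in NR 2, and to 208 to 247 CPM in Vehicle. The part of brown fat content in Cidea was not tested. Of 9 tested brown adipocyte markers 1 was higher in NR (Kcnk3, a potassium channel, log2 fold change 0.97) and 0 lower at an unadjusted p of 0.05. Over all tested genes the shares were 4.83% and 4.88%.

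Plin5, the coat protein of tissues that burn fatty acids such as heart and muscle, read 3.42, 5.06, 2.34, 3.32 and 3.24 CPM in NR and 2.48, 2.24, 2.55, 2.601 and 1.35 CPM in Vehicle. Of the NR mice 4 were above every Vehicle mouse and NR 3 was inside the Vehicle range. It had a log2 fold change of 0.63 (SE 0.24, edgeR unadjusted p = 0.0224, adjusted p = 0.473), and without NR 2 it was 0.46 with an unadjusted edgeR p of 0.0622. Muscle markers were highest in NR 3 and NR 5. Without both mice, a subset chosen after seeing the data, the log2 fold change of Plin5 was 0.82. The part of muscle content in Plin5 was not tested. Plin4, a long perilipin of fat and muscle encoded 1797 bases from Plin5, read 18.9 to 53.4 CPM in Vehicle and 23.5 to 50.5 CPM in NR, with wide overlap. Its log2 fold change was 0.07 (SE 0.28, edgeR adjusted p = 0.945), and its sign turned when NR 2, NR 5 or Vehicle 2 was left out, to between -0.07 and -0.04.

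Plin2, the coat protein of small droplets in most cells and in lipid-laden macrophages, read 58.4, 30.6, 39.9, 36.0 and 40.2 CPM in NR and 41.1, 44.5, 30.6, 28.5 and 29.8 CPM in Vehicle. The groups overlapped, with NR 1 highest, and the log2 difference was 0.23 (SE 0.18, edgeR adjusted p = 0.689). Macrophage markers summed to the most in NR 1 (2235 CPM) among NR mice and in Vehicle 2 (6202 CPM) among Vehicle mice. Plin2 was highest in the same mice. Most of both sums was 1 gene named after its values were seen, Lyz2, at 1490 CPM in NR 1 and 5740 CPM in Vehicle 2. Adgre1, another marker, read 23.1 CPM in NR 1. It read 12.3 CPM in Vehicle 2 and 6.92 to 11.5 CPM in the other Vehicle mice. Of the macrophage markers 0 of 12 passed an unadjusted p of 0.05, against 9.71% of all tested genes, and their part in Plin2 was not tested.

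Plin3, a perilipin that moves between cytosol and droplet, read 96.6, 93.5, 83.9, 98.8 and 84.2 CPM in NR and 86.3, 95.4, 126, 135 and 109 CPM in Vehicle. Vehicle 3, 4 and 5 were above all NR mice, and Vehicle 1 and 2 were within their range. Its log2 fold change was -0.27 (SE 0.12, edgeR unadjusted p = 0.0386, adjusted p = 0.494). In 7 of the 10 fits that left out 1 mouse its unadjusted p was above 0.05, up to 0.119, and it was below for NR 4, Vehicle 1 and Vehicle 2. Vehicle 3 and 4 also had the highest cochlea marker sums (8704 and 8060 CPM), and the part of these in Plin3 was not tested.

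Pnpla2, which starts lipolysis, was among the steadiest of the set. It read 99.2, 126, 105, 94.6 and 104 CPM in NR and 96.1, 92.7, 104, 103 and 95.3 CPM in Vehicle, and the groups overlapped. On the log2 scale the difference was 0.11 (SE 0.07, edgeR adjusted p = 0.664). Lipe, the second lipase, read 26.2, 43.2, 27.9, 26.6 and 24.7 CPM in NR and 26.6, 26.8, 24.0, 26.8 and 24.5 CPM in Vehicle. All mice but NR 2 fell within a narrow band. Its log2 fold change was 0.21 (SE 0.14, edgeR adjusted p = 0.653), and 0.04 without NR 2. Of its 5886 exonic bases 15.6% overlap exons of the antisense gene 4732471J01Rik, whose reads cannot be told apart where counting ignores strand. Mgll, the third lipase, ranged from 121 to 155 CPM in NR and from 117 to 173 CPM in Vehicle. Its log2 fold change was -0.0043 (SE 0.11, edgeR adjusted p = 0.994), with a sign that depended on the processing.

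**Figure D2:**
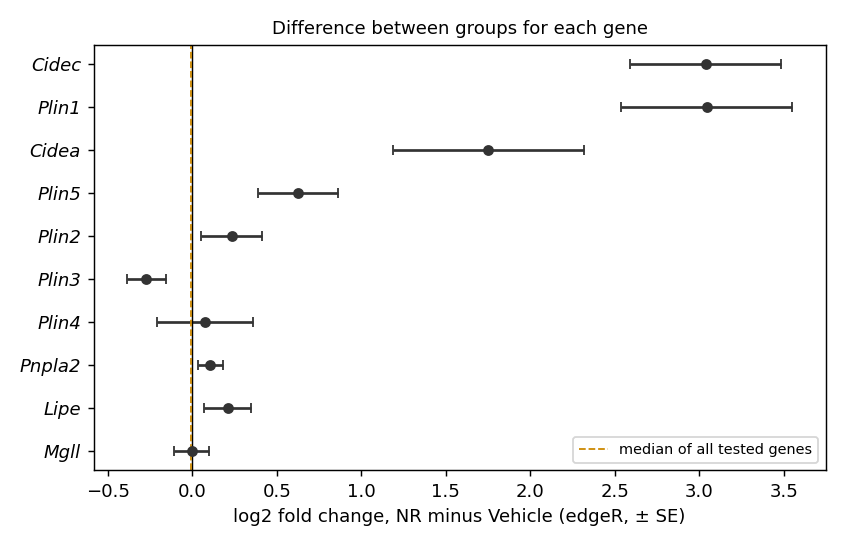
Log2 fold change of each gene between NR and Vehicle (points) with its standard error (bars), from edgeR over 5 against 5 mice, and the median of all tested genes (dashed, -0.0092). Cidec and Plin1 are near 3, Cidea is at 1.75, and the 7 others lie between -0.27 and 0.63.

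The contrast of the fat cell pair with the widely used trio was taken within each mouse. Mean log2 CPM of Cidec and Plin1 was 2.96 ± 0.78 in NR and 0.09 ± 0.67 in Vehicle (SD, n = 5), while that of Plin2, Plin3 and Pnpla2 was 6.19 ± 0.10 and 6.16 ± 0.06. The pair minus the trio was -3.23 ± 0.79 log2 units in NR and -6.07 ± 0.71 in Vehicle. It ran from -3.91 to -1.90 in NR and from -6.76 to -5.03 in Vehicle and did not overlap. The difference between groups was 2.84 log2 units, or 7.17-fold, and 2.51 without NR 2. It is given without a p, since both groups of genes were named with these results known.

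**Figure D3:**
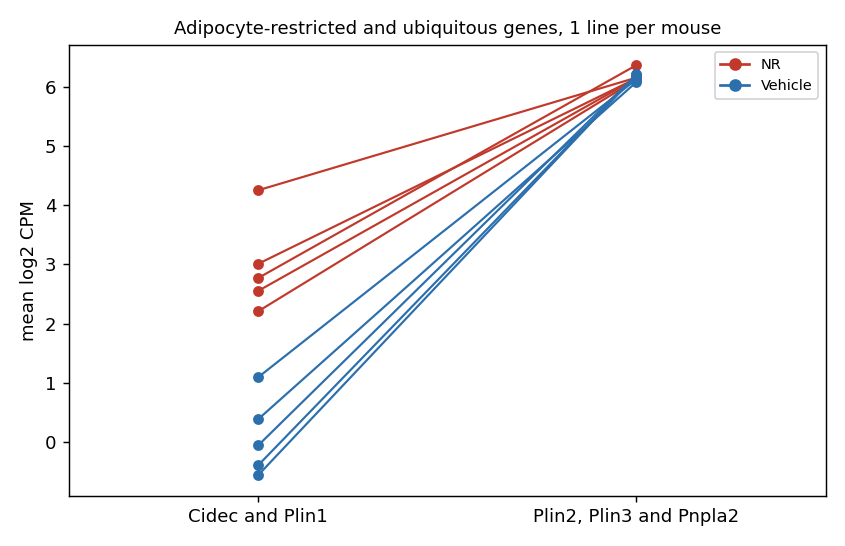
Mean log2 CPM of Cidec and Plin1 (left) and of Plin2, Plin3 and Pnpla2 (right), with 1 line per mouse. On the left the 5 NR mice (2.21 to 4.25) lie above the 5 Vehicle mice (-0.56 to 1.09), and on the right all 10 lie between 6.08 and 6.37.

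Per length, the order of the genes differed between the groups mainly in its lower part. In Vehicle mice Pnpla2 (99.0 ± 9.27 TPM), Plin3 (89.0 ± 19.7) and Mgll (85.5 ± 15.4) overlapped one another at the top. Plin2 (30.0 ± 5.10 TPM), Plin4 (17.9 ± 7.37), Lipe (13.3 ± 0.683) and Cidea (10.2 ± 6.48) followed, each overlapping the next. Plin5 (3.27 ± 0.809 TPM), Cidec (1.41 ± 0.905) and Plin1 (0.884 ± 0.405) were last, again with overlap between neighbours. In NR mice the same top 3 led, with Pnpla2 at 107 ± 12.1 TPM, and Cidec (11.6 ± 5.93 TPM) and Plin1 (7.34 ± 5.96) came before Plin5 (5.10 ± 1.44), with ranges that overlapped. Cidec and Plin1 together made up 4.54 ± 1.95% of the 10 genes' summed TPM in NR and 0.661 ± 0.376% in Vehicle. Among the 5 perilipins, whose summed level was 141 ± 11.6 TPM in NR and 141 ± 22.1 TPM in Vehicle, Plin1 took 5.10 ± 3.83% in NR against 0.659 ± 0.363%. Plin3 was the main coat transcript in both groups, at 52.6 ± 4.03% and 62.6 ± 4.83%.

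Since Cidec and Plin1 are typical of fat cells, their levels were set beside those of other adipocyte genes. Bulk RNA does not show which cells made these transcripts. In cultured mouse cochlear cells the study reported higher CIDEC and slightly lower PLIN1 with NR. Of 17 tested adipocyte markers 8 were higher in NR and 1 lower (Nrip1, -0.30 on the log2 scale) at an unadjusted p of 0.05. Over all tested genes the shares were 4.83% and 4.88%. Among the markers 15 of the 17 had a log2 fold change above 0, and the median was 0.97. The summed level of the markers overlapped, at 583 to 1069 CPM in NR and 537 to 831 CPM in Vehicle, but 42.7 to 74.1% of it was 1 gene, Car3, a carbonic anhydrase of fat and muscle (log2 fold change -0.25). Without Car3 the sum was 293 to 522 CPM in NR and 205 to 352 CPM in Vehicle. The fat hormone Lep was at 0 in Vehicle 2 and 3 and Retn, another, in Vehicle 4. Adipoq, the fat cell hormone adiponectin, read 9.01, 17.1, 14.1, 7.60 and 10.1 CPM in NR and 12.2, 11.0, 2.43, 4.10 and 6.18 CPM in Vehicle. Vehicle 1 and 2 were thus inside the NR range for Adipoq (log2 fold change 0.70, SE 0.41, edgeR adjusted p = 0.601), whereas they were below it for Cidec and Plin1. Fabp4, the fatty acid carrier of fat cells, overlapped in the same way, at 33.8 to 122 CPM in NR and 10.0 to 43.7 CPM in Vehicle. In 3 of the list's 19 genes with counts, as in Cidec and Plin1, every NR mouse was above every Vehicle mouse. This held for 0.769% of all tested genes. Pck1, which makes glycerol for triglyceride in fat cells, had the largest log2 fold change of the list (3.34, SE 0.70), at 2.94 to 24.9 CPM in NR and 0.353 to 1.34 CPM in Vehicle. Cfd, the fat cell protease adipsin, stood at 13.2 to 27.5 CPM in NR and 1.41 to 6.46 CPM in Vehicle (log2 fold change 2.36, SE 0.40). Lep, which did not pass the filter on low counts, ran from 0.306 to 1.83 CPM in NR and from 0 to 0.298 CPM in Vehicle. Pck1, Cfd, Kcnk3, Nrip1, Car3, Lep and Retn were named after their values were seen. The part of adipocyte content in the values of Cidec and Plin1 was not tested.

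Within each mouse, Cidec and Plin1 were also divided by adipocyte markers, and the outcome depended on the marker. The TPM ratio of Cidec to Adipoq was 0.497, 0.573, 0.355, 0.368 and 0.395 in NR and 0.109, 0.0273, 0.211, 0.0880 and 0.112 in Vehicle, with no overlap. With Fabp4 as the reference it was 0.268 ± 0.0238 against 0.0962 ± 0.0418 for Cidec and 0.156 ± 0.0358 against 0.0601 ± 0.0215 for Plin1 (SD, n = 5), again without overlap. With Pck1 as the reference the groups overlapped and the means were close, at 2.37 ± 1.06 against 2.22 ± 0.906 for Cidec and 1.28 ± 0.399 against 1.40 ± 0.480 for Plin1. With Cfd they overlapped too, at 0.205 ± 0.165 against 0.132 ± 0.0597 for Cidec and 0.137 ± 0.153 against 0.0817 ± 0.0293 for Plin1. Here NR 2 stood high, at 0.497 for Cidec and 0.409 for Plin1. NR 1, 3, 4 and 5 ran from 0.109 to 0.176 for Cidec, against 0.0310 to 0.172 in Vehicle. For Plin1 these mice ran from 0.0543 to 0.0810, against 0.0331 to 0.109 in Vehicle. Over the 16 tested markers with reads in every mouse, the groups overlapped for 4 with Cidec (Cfd, Aqp7, Pck1 and Tusc5) and for these and Lpl, 5 in all, with Plin1. The log2 fold changes of Cidec and Plin1 (3.04 and 3.05) lay between the marker list's median (0.97) and that of Pck1 (3.34). These ratios were chosen after the values were seen and carry no test. Cidec and Plin1 alone already separate the groups. A ratio to a marker that differs little between the groups will thus mostly stay apart, and the count of markers adds no support.

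**Figure D4:**
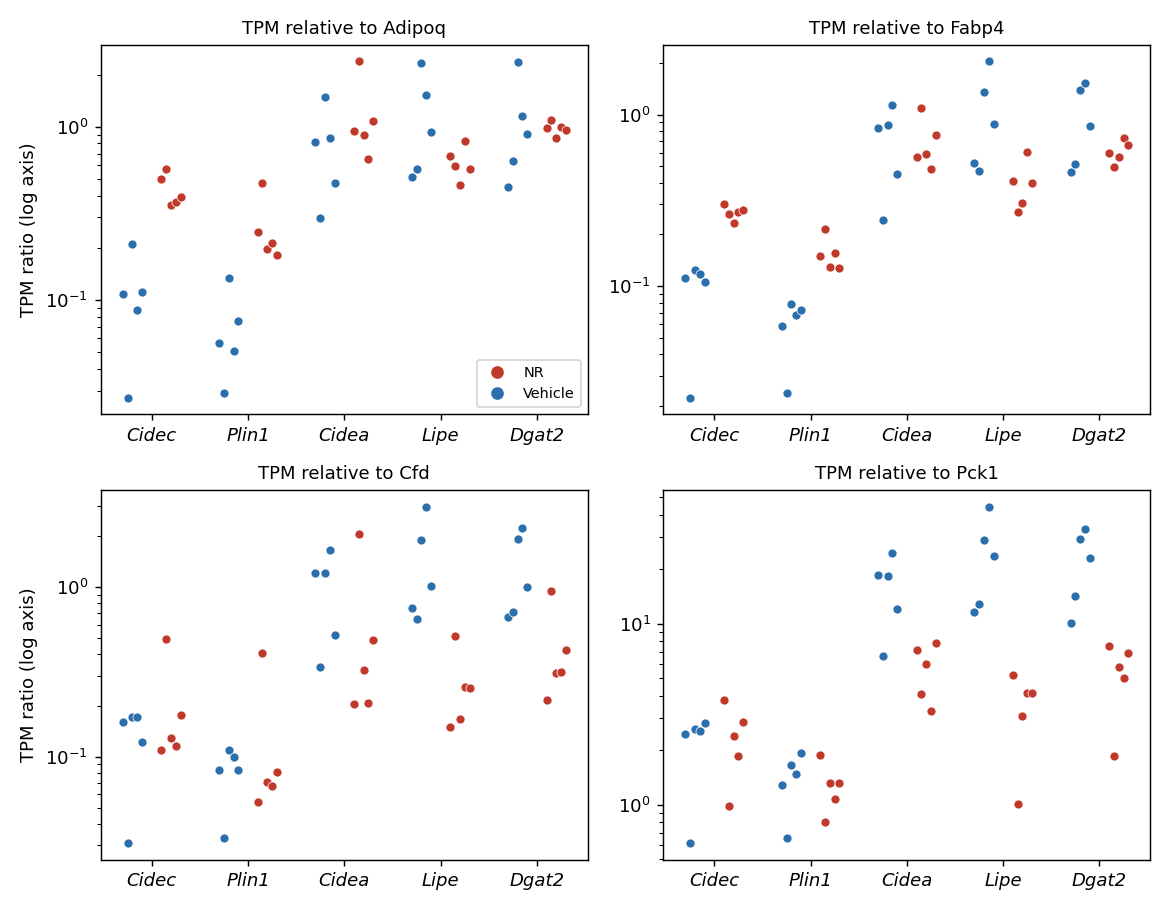
TPM of Cidec, Plin1, Cidea, Lipe and Dgat2 divided by TPM of Adipoq, Fabp4, Cfd or Pck1 in the same mouse (1 panel per reference), on log axes, 1 point per mouse. For Cidec and Plin1 the 5 NR mice lie above the 5 Vehicle mice over Adipoq and Fabp4, and the groups overlap over Cfd and Pck1.

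Of 29 genes that regulate lipolysis 5 were higher in NR and 2 lower at an unadjusted p of 0.05, against 4.83% and 4.88% of all tested genes. Their median log2 fold change was 0.06, against -0.0092 for all tested genes. The higher ones were the adrenergic receptors Adrb3 (log2 fold change 1.87, SE 0.42) and Adrb1 (0.49, SE 0.16), which switch lipolysis on, the glycerol channel Aqp7 (2.43, SE 0.71), Fabp4 (1.34, SE 0.45) and the carboxylesterase Ces1f (1.38, SE 0.34). Adrb3, Aqp7 and Ces1f were scarce, at 0.469, 0.374 and 0.335 CPM on average in Vehicle, and 1.71, 2.00 and 0.875 CPM in NR. With a filter of at least 1 CPM in at least 5 mice, 2 regulators were higher and 0 lower. Adrb3, Aqp7 and Fabp4 are also adipocyte markers and were counted among the higher ones above. The lower ones were the insulin signalling kinase Akt2 (-0.25, SE 0.11) and the monoglyceride lipase Abhd6 (-0.23, SE 0.10), the latter named after its values were seen, and neither passed without NR 1, NR 3, NR 5, Vehicle 3 or Vehicle 4. None of 3 direct partners of Pnpla2 passed an unadjusted p of 0.05. Abhd5, its coactivator, stood at 22.4 ± 2.49 CPM in NR and 21.8 ± 1.25 CPM in Vehicle (edgeR adjusted p = 0.889). Its inhibitors G0s2 and Hilpda had log2 fold changes of -0.14 (SE 0.13) and -0.26 (SE 0.14), with edgeR adjusted p of 0.731 and 0.564.

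Triglyceride synthesis had 2 of 22 tested genes higher and 3 lower at the same threshold, against 4.83% and 4.88% of all tested genes. Its median log2 fold change was 0.02. Dgat2, which adds the last fatty acid to triglyceride, read 19.8, 41.7, 27.2, 16.9 and 21.6 CPM in NR and 12.2, 15.5, 12.8, 10.5 and 12.5 CPM in Vehicle. The groups did not overlap and NR 2 was highest, as for Cidec and Plin1 (log2 fold change 1.00, SE 0.22, edgeR adjusted p = 0.370). Dgat1, which does the same step in most tissues, stood at 50.6 ± 2.30 and 48.8 ± 2.68 CPM (log2 fold change 0.05, SE 0.05). Agpat2, an acyltransferase of adipocytes, was higher by 0.24 (SE 0.09), while Agpat5 (-0.17, SE 0.05), Lpin2 (-0.22, SE 0.08) and Acsl4 (-0.21, SE 0.09) were lower on the log2 scale.

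Among 31 tested genes of droplet assembly and the droplet surface 1 was higher and 1 lower at an unadjusted p of 0.05, against 4.83% and 4.88% of all tested genes. Their median log2 fold change was -0.03. The higher one was Fitm1, a droplet-forming protein of muscle (1.37, SE 0.39), at 1.16 ± 0.572 CPM in NR and 0.442 ± 0.180 CPM in Vehicle. Without NR 3 and NR 5, the mice with the most muscle marker RNA, no gene of this list was higher at that threshold. That subset was chosen after seeing the data, and in it genes higher at that threshold fell from 886 to 460 over all genes. The part of muscle content in Fitm1 was not tested. Hsd17b11, a droplet-bound dehydrogenase, was the lower one (-0.20, SE 0.08). Bscl2, the seipin that shapes new droplets, stood at 95.5 ± 2.82 and 93.4 ± 6.44 CPM. No gene of these 3 lists passed 0.05 after edgeR adjustment over all genes.

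**Figure D5:**
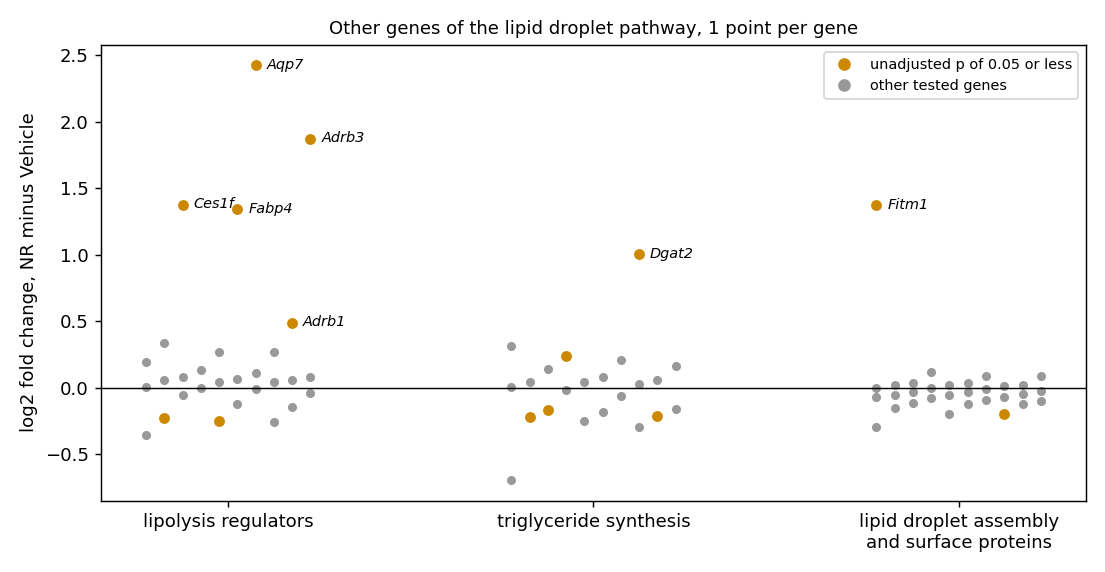
Log2 fold change between NR and Vehicle of each tested gene of 3 lists, 1 point per gene, with genes at an unadjusted edgeR p of 0.05 or less in orange. Most points lie close to 0, and Aqp7, Adrb3, Ces1f, Fabp4, Fitm1 and Dgat2 lie at 1 or more.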

How the data were processed

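RNA of 10 cochlea samples (5 NR, 5 Vehicle) was sequenced from libraries of the NEBNext Ultra RNA kit, which does not mark strand, and the deposited files hold whole-number counts per gene and a gene length. Per the labels the authors used fastp, STAR 2.6.1d and featureCounts 1.5.0 on build mm10; the annotation release is not given in the sources used here. Here counts went into edgeR 4.0.16 (R 4.3.3) with TMM scaling, filterByExpr and the quasi-likelihood test of NR against Vehicle without covariates, and p-values were adjusted over 18329 genes by the Benjamini-Hochberg method. CPM used TMM-scaled totals, and log2 CPM a prior count of 2. TPM used the deposited lengths. Single genes were also tested by exact two-sided permutation over all splits of the mice. DESeq2 1.42.0, other filters and scalings, a replicate block, each mouse left out, and (added after seeing the data) NR 3 and NR 5 left out were alternatives. Code was tested on simulated data. No 2 libraries were alike within sampling noise. The members and gene lists were chosen with earlier results of these data known. Named genes were the members, list genes at an unadjusted p of 0.05 (at most 6 a list), fixed partners and markers, and the 5 nearest genes to Cidec and Plin1. Exons were compared with GENCODE vM21 and promoters taken from RefSeq.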

Additional observations from a re-analysis of the deposited data

Results flagged for a closer look

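In 8 of 46 groups of 5 mice tested, 1 mouse lay farther from the others than Dixon's 95% limit allows, where chance gives about 1 in 20. NR 2 was such a mouse for Cidea (34.4 CPM, next 10.7), Plin1 (27.2 CPM, next 9.39), Lipe (43.2 CPM, next 27.9) and the summed cochlea markers (6489 CPM, next 4825). Vehicle 1 stood apart for Cidea (8.39 CPM, next 3.03), and Vehicle 5 was low for Plin5 (1.35 CPM, next 2.24). Vehicle 2 stood apart for the TPM ratio of Plin1 to Cidec (1.06, next 0.679) and for the summed macrophage markers (6202 CPM, next 1024), of which Lyz2 made up 5740 CPM.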

How the results depend on the processing

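Cidec and Plin1 were higher in NR under every alternative run, and edgeR's adjusted p for both stayed above 0.05 in all of its fits. DESeq2 gave log2 fold changes of 3.05 for Cidec and 3.05 for Plin1 and called 2 members and 105 genes. With no filter on low counts 1414 genes were higher at an unadjusted p of 0.05, as were 2 genes of droplet assembly, with 0 of these and 1 lipolysis regulator lower. With at least 1 CPM in at least 5 mice, 2 lipolysis regulators were higher and 0 lower, and 0 droplet assembly genes were higher. Leaving out NR 3 and NR 5, chosen after seeing the data, left 460 genes higher and 383 lower, 0 members lower, 0 lipolysis regulators lower, 0 genes of triglyceride synthesis lower and 0 of droplet assembly higher. The cause was not tested. The log2 fold change of Mgll turned to 0.011 with no filter, 0.0080 with the 1 CPM filter, 0.0030 with the replicate block, and 0.03, 0.06, 0.04 and 0.08 without NR 3, NR 4, Vehicle 1 or Vehicle 4. That of Plin4 turned to -0.04, -0.07 and -0.06 without NR 2, NR 5 or Vehicle 2, and to -0.0095 without NR 3 and NR 5.

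With 1 mouse left out at a time, 669 (without NR 3) to 1414 (without NR 2) genes were higher and 484 to 1059 lower, and 0 to 1 passed after adjustment (Oscar, an osteoclast receptor named after its value was seen, without NR 2). Members higher numbered 3 to 4, the loss being Plin5 without NR 2, and members lower 0 to 1, Plin3 being lost without NR 1, 2, 3 or 5 or Vehicle 3, 4 or 5. Lipolysis regulators numbered 5 to 7 higher and 0 to 3 lower, triglyceride synthesis genes 1 to 2 and 1 to 5, droplet assembly genes 1 to 2 and 0 to 3. Lower genes were fewest without NR 1, NR 3 or Vehicle 3, with 0 lipolysis regulators, 1 gene of triglyceride synthesis and 0 of droplet assembly, and NR 2 left out gave 5 of triglyceride synthesis and 3 of droplet assembly. The log2 fold change ranged from -0.072 to 0.30 for Plin4 and from -0.053 to 0.079 for Mgll. Cidec ranged from 2.69 to 3.48, Plin1 from 2.41 to 3.33 and the within-mouse contrast from 2.51 to 3.10. Deviations of same-numbered mice correlated at -0.22 to 0.17, which shows no strong pairing by replicate number but cannot exclude one. A replicate block left 0 members lower and 1 lipolysis regulator lower. Cidec and Plin1 rest on few reads in Vehicle mice, so counting noise there is large beside that of the lipases.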
